A study of Mus musculus with 4 samples.

Results

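The semaphorins, ephrins, netrins and Slits are ligands that steer growing axons, and plexins, neuropilins, Eph receptors, Dcc, Unc5b and Robos are their receptors. They were taken from the array by gene symbol: Sema3 to Sema7, Plxna to Plxnd, Epha and Ephb, Efna and Efnb, Ntn, Slit1 to Slit3, Robo1 to Robo3, Nrp1, Nrp2, Dcc and Unc5b. This gave 156 probes for 61 genes, of 34885 probes with a single symbol for 19057 genes and 45281 probes in all. Of the 61 genes, 33 encode ligands and 28 receptors. Ntn1, Ephb2, Sema5b and Robo3 were not analysed here.

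All mice were males of the inbred strain NC/Nga, aged 9 weeks, and RNA was taken from the cervical part of their spinal cord. The strain is known for dermatitis that arises in ordinary animal rooms. The conventional group (2 arrays) was kept in a conventional room and had the atopic dermatitis phenotype, and the SPF group (2 arrays) was kept free of specific pathogens and had a normal phenotype. No transgene, deletion or drug is named for either group, and housing and skin phenotype cannot be told apart. Nothing in the labels says that replicates came from different mice, so the p-values measure only the spread between these arrays, which may be technical.

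During development, guidance ligands attract or repel the growth cones of axons that carry their receptors, and at the ventral midline of the cord netrins, Slits, ephrins and semaphorins together decide which axons cross. Class 3 semaphorins are secreted and mostly bind neuropilins with A-type plexins, while most other semaphorins are anchored in the membrane and bind plexins directly. Ephrins are membrane-bound, so their signal passes at cell contact and runs in both directions. In the adult nervous system members of these families are known for roles at synapses, in blood vessels, in myelinating cells and in the response to cord injury.

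The 4 arrays gave similar numbers of probes above background, a detection p-value under 0.05 against the array's negative-control beads. There were 20689 and 20960 such probes on the conventional arrays, against 20493 and 20334 on the SPF arrays. Correlations between arrays lay between 0.986 and 0.990. The cord label was checked on marker genes: all 4 measured oligodendrocyte markers and all 5 astrocyte markers were above background on every array, as were 3 of 5 neuronal markers. The neuronal genes Snap25 and Nefl, both abundant in cord, were above background on no array, so a probe below background does not show that its gene is silent. Of 4 sensory ganglion and 3 Schwann cell markers listed, 3 and 1 were on the array. Of these, 0 were above background on enough arrays to be tested.

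Most guidance genes were measurable in the adult cord. A probe above background on all 4 arrays was present for 41 of the 61 genes (67.2%), against 10313 of 19057 named genes (54.1%). The guidance genes carry more probes each, 2.56 on average against 1.83, which gives them more chances to pass. Among genes with 1 probe, 12 of 24 guidance genes passed, against 40.7% of all such genes. Among genes with at least 3 probes, 22 of 26 (84.6%) passed, against 78.2%. Counted by probe the order turned round, with 59 of 156 guidance probes (37.8%) above background on all arrays, against 44.5% of all named probes. The number of guidance genes per array was 42 and 44 in conventional mice, against 43 and 43 in SPF mice.

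**Figure D1:**
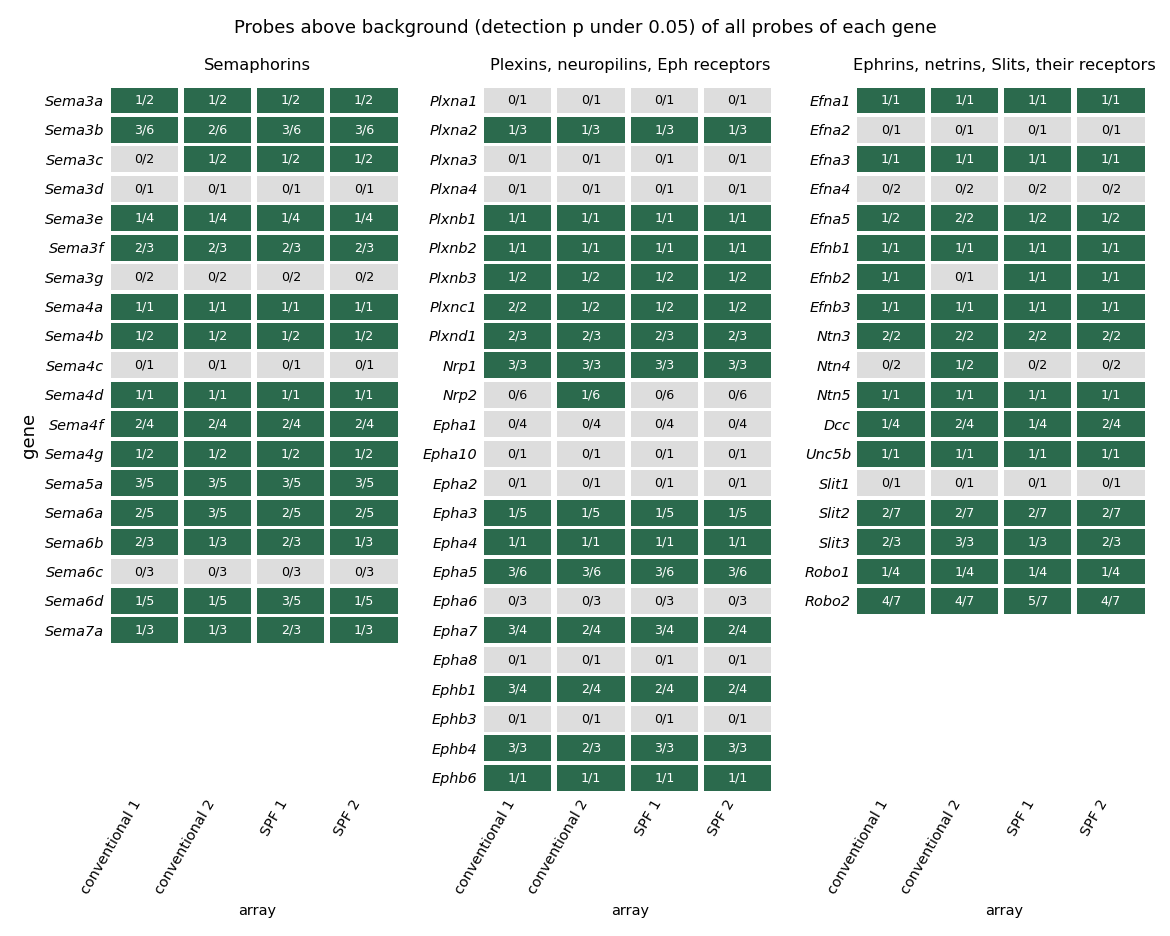
Each row is a guidance gene, and each column an array, conventional arrays left of SPF arrays. The numbers give probes above background out of all probes of the gene, and green marks at least 1 such probe. Of 61 genes, 41 are green on all 4 arrays and 16 on none.

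Among ligands, Sema3a, Sema3b, Sema3e and Sema3f of the 7 class 3 genes passed on all arrays. Of the 12 other semaphorins, 10 did so, and Sema4c and Sema6c passed on no array. Efna1, Efna3 and Efna5, with Efnb1 and Efnb3, passed among the ephrins. Ntn3 and Ntn5 passed among the netrins, and Slit2 and Slit3 among the Slits. Sema3c was below background on conventional replicate 1 alone, and Efnb2, the arterial ephrin, on conventional replicate 2 alone. Ntn4 was above background on conventional replicate 2 alone, through 1 of its 2 probes.

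Among receptors, both Robos and both netrin receptors passed on all arrays. So did Plxna2 and all of the measured plexins of types B, C and D, while Plxna1, Plxna3 and Plxna4 passed on no array. Nrp1 passed with each of its 3 probes, whereas Nrp2 passed only through 1 of 6 probes on conventional replicate 2. Epha3, Epha4, Epha5 and Epha7 passed among 9 EphA genes, and Ephb1, Ephb4 and Ephb6 among 4 EphB genes. The other genes that passed on no array were Sema3d, Sema3g, Epha1, Epha2, Epha6, Epha8, Epha10, Ephb3, Efna2, Efna4 and Slit1. Of the 41 genes above background on all arrays, 22 also had a probe that was above background on none, so detection belongs to a probe as much as to its gene.

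In the comparison of conventional with SPF cords, no guidance gene passed the test. Levels are background-corrected, quantile-normalized log2 intensities, differences are conventional minus SPF, and the error after each difference is the standard error of limma's model (n = 2 arrays per group). A probe entered the test if it was above background on at least 2 arrays, and the brightest such probe stood for its gene. This left 43 guidance genes among 14634 features. After Benjamini-Hochberg adjustment 0 of 43 were under 0.05, and 0% of all features were, and every guidance gene had a limma adjusted p of 1. Only Dcc reached an unadjusted p under 0.05, with the lower level in conventional mice, a threshold that 1.31% of all features passed with higher and 1.72% with lower levels in conventional mice.

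The differences ran from -0.68 to 0.41, with 19 above 0 and 24 below. Their median was -0.05, and the median over all features was -0.000321. For 38 of the 43 genes the 95% confidence interval lay within 1 log2 unit of 0 on both sides. Both conventional arrays were above both SPF arrays in 10 genes (23.3%), against 15.6% of all features, and below them in 7 genes (16.3%), against 15.1%. The groups overlapped in the remaining 26. With median scaling in place of quantile normalization, 5 guidance genes were higher and 9 lower without overlap, and all features split into 1650 higher and 2582 lower (39.0% higher), where the quantile-normalized split was 2288 and 2215 (50.8% higher). The gap between arrays of the same group, averaged over the 2 groups, exceeded the size of the difference between groups in 25 of 43 guidance genes (58.1%). Of all features 69.1% did so. Some cell type markers also moved with the groups. Red cell markers were lower in conventional mice without overlap in 3 of 3 genes, with mean log2 levels of 10.58 and 9.92, against 11.56 and 10.98 in SPF mice. Oligodendrocyte markers were lower without overlap in 2 of 4, with means of 12.96 and 12.91 in conventional mice, against 13.34 and 13.15 in SPF mice. These 2 were Opalin and Mag, with differences of -0.92 and -0.12, against -0.19 for Mog and -0.01 for Mbp. Endothelial markers were higher without overlap in 3 of 5, with means of 8.47 and 8.61 in conventional mice, against 8.24 and 8.48 in SPF mice. Motor neuron markers were higher without overlap in 3 of 4 genes, and skeletal muscle markers lower in 2 of 4 with all 4 below 0, while the 9 meningeal fibroblast markers were all below 0 with 1 free of overlap. None of these markers passed the limma test, and their part in the guidance values was not tested.

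**Figure D2:**
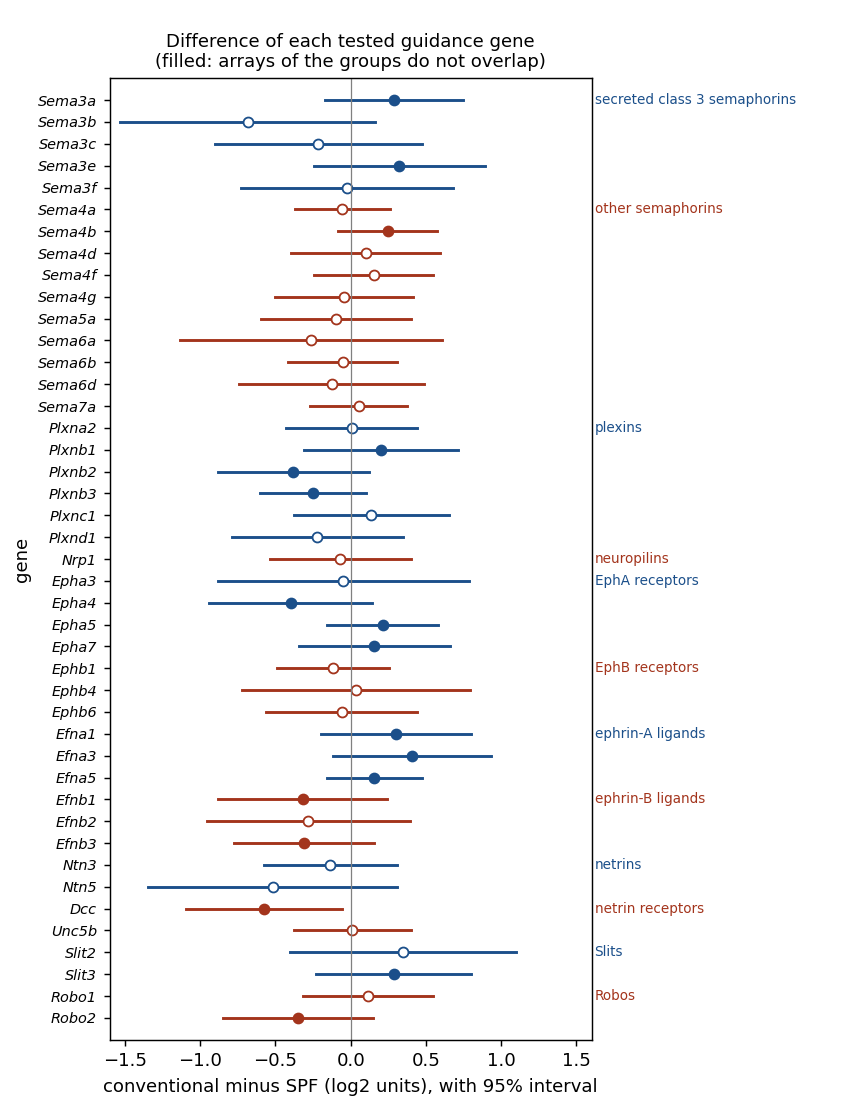
Points give the conventional minus SPF difference in log2 intensity for the 43 guidance genes tested, by family, and bars the 95% confidence interval of limma's model (2 arrays per group); filled points mark groups without overlap. The differences lie between -0.68 and 0.41, and the interval of Dcc alone does not reach 0.

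Promoter sequence was read from RefSeq for the window from 250 bases before to 50 bases after each gene's start (build GRCm38.p6). A window was found for 53 of the 61 genes, 69 promoters in all. Each was searched on both strands for the GC box GGGCGG, whose other strand reads CCGCCC, a short motif known to be bound by Sp-family factors. It was present in 51 of 69 (73.9%), against 35.7% of all 32851 promoters and 61.6% of those of named genes above background on all arrays. The share did not follow detection here, with 35 of 50 promoters (70.0%) of guidance genes above background on all arrays and 12 of 15 (80.0%) of those on none. It was present in 13 of 14 promoters of the genes higher without overlap in conventional mice, from 10 genes. Of those lower it was present in 3 of 8, from 5 of the 7 genes, as Dcc and Efnb3 had no window. A gene can give several promoters: among the 8, Robo2 gave 3 without a box and Plxnb2 gave 2 with a box. A match is a stretch of letters and not a bound site.

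Promoters of 4 genes are printed to show the span from GC-rich to GC-poor starts, Efna5 and Sema3a from the genes higher in conventional mice without overlap, Epha4 and Plxnb3 from those lower. They lie at chr17:62881268-62881567 (Efna5, minus strand, 38 CpG), chr5:13396534-13396833 (Sema3a, plus strand, 2 CpG), chr1:77515039-77515338 (Epha4, minus strand, 17 CpG) and chrX:73756853-73757152 (Plxnb3, plus strand, 4 CpG). Capitals mark GC boxes, 4 in Efna5, 1 in Epha4 and 0 in the other two.
Efna5: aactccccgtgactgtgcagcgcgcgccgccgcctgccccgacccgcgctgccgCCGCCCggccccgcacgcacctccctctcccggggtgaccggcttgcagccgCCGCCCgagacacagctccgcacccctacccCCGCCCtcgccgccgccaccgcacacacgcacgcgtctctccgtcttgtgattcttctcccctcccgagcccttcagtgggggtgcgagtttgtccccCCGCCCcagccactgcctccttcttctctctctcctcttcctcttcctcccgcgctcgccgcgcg
Sema3a: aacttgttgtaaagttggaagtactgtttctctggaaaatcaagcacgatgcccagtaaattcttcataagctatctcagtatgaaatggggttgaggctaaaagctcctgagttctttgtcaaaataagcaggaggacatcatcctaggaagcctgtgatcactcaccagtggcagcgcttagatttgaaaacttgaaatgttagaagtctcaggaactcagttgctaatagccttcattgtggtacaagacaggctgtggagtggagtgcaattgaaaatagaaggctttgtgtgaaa
Epha4: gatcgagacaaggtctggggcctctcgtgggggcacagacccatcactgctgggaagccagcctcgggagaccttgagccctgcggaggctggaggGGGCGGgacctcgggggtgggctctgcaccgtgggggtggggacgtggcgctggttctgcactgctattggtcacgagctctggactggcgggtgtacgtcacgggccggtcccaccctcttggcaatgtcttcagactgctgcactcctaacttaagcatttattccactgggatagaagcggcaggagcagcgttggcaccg
Plxnb3: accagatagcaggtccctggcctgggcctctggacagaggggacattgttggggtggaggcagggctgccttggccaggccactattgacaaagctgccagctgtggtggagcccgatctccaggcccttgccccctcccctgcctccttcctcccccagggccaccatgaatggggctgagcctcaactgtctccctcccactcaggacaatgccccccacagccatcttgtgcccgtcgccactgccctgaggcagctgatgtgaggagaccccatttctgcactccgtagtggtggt

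Of the 5 secreted semaphorins tested, Sema3a and Sema3e were higher in conventional mice without overlap. Sema3a repels axons through Nrp1 and is also a component of perineuronal nets around adult neurons. Its levels were 8.11 and 8.51 on the conventional arrays, against 7.98 and 8.06 on the SPF arrays. Conventional replicate 2 stood highest and replicate 1 lay close to the SPF pair, and the difference was 0.29 ± 0.19, or 0.09 without conventional replicate 2. Sema3e, which binds Plxnd1 without a neuropilin, measured 6.06 and 5.59 in conventional mice, against 5.46 and 5.55 in SPF mice. Here conventional replicate 1 stood apart, and the difference of 0.32 ± 0.24 became 0.09 without it.

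Sema3b, another secreted repellent, had the difference farthest from 0 of the 43 genes. Its levels were 7.05 and 6.22 on the conventional arrays, against 7.71 and 6.94 on the SPF arrays. The groups overlapped, since conventional replicate 1 lay above SPF replicate 2. The difference was -0.68 ± 0.36, with a confidence interval from -1.53 to 0.16. Leaving out conventional replicate 2 gave -0.27, and leaving out conventional replicate 1 gave -1.10. The 3 probes of Sema3b in the test were all lower in mean in conventional mice. Microglial and skeletal muscle markers had, in their means, the same order of arrays as Sema3b. Singly, Cx3cr1, Csf1r, Acta1 and Mylpf had that order, while Aif1, P2ry12, Tmem119, Ckm and Tnnt3 did not. The 5 microglial markers, all above background on every array, had mean log2 levels of 7.91 and 7.55 in conventional mice, against 8.12 and 7.66 in SPF mice, and summed intensities of 1413 and 1069 in conventional mice, against 1685 and 1239 in SPF mice. The skeletal muscle markers, of which 4 were tested, gave another such set, with mean log2 levels of 6.19 and 5.59 in conventional mice, against 7.32 and 6.14 in SPF mice, with 2 of 5 above background on all arrays and Myh4 on none. Their summed intensity was 457 and 267 in conventional mice, against 1137 and 353 in SPF mice, and the part of either list in the result was not tested. In bulk tissue, fewer cells of a type and less RNA per cell cannot be told apart.

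The anchored semaphorins were near 0 as a group, with a median difference of -0.05 over 10 genes. Sema4b, a transmembrane semaphorin, measured 9.56 and 9.58 in conventional mice, against 9.42 and 9.22 in SPF mice. It was the 1 member of this group without overlap, and the difference was 0.25 ± 0.14. Sema6a, which binds A-type plexins, measured 6.47 and 7.42 in conventional mice, against 6.86 and 7.56 in SPF mice. The replicate 2 array was the higher in both groups, and the difference of -0.27 ± 0.37 turned to 0.21 without conventional replicate 1 and to 0.08 without SPF replicate 2. Sema4d, which signals through Plxnb1 and is made by oligodendrocytes, measured 5.72 and 5.70 in conventional mice, against 5.70 and 5.52 in SPF mice. Sema7a, attached to the membrane by a lipid anchor, measured 10.15 and 10.35 in conventional mice, against 10.11 and 10.29 in SPF mice, nearly the same pair in both groups.

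Plexins, the semaphorin receptors, did not share a direction, with 3 differences above 0 and 3 below. Plxnb1 measured 6.14 and 6.40 in conventional mice, against 6.13 and 6.01 in SPF mice. Conventional replicate 1 was barely above SPF replicate 1, and the difference was 0.20 ± 0.22, or 0.08 without conventional replicate 2. Plxnb2 measured 7.43 and 7.33 in conventional mice, against 7.98 and 7.54 in SPF mice. SPF replicate 1 was the highest of the 4, and the difference was -0.38 ± 0.21, or -0.16 without that array. Red cell and oligodendrocyte markers had, in their means (values above), the same order of arrays as Plxnb2. Efnb3 had that order too, with its conventional arrays level. Singly, Hba-a1, Hbb-bt, Alas2 and Opalin had it, while Mag, Mog and Mbp did not. The part of either list in the Plxnb2 and Efnb3 values was not tested. Plxnb3, a receptor for Sema5a whose promoter is printed above, measured 8.63 and 8.65 in conventional mice, against 8.97 and 8.80 in SPF mice. Its conventional pair was tight and below both SPF arrays, by -0.25 ± 0.15.

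Nrp1, the coreceptor that lets Sema3a act on plexins and that also binds VEGF on vessels, measured 10.03 and 9.48 in conventional mice, against 9.91 and 9.73 in SPF mice. The conventional arrays lay on either side of the SPF pair. The difference was -0.07 ± 0.20, with an interval from -0.53 to 0.40, and turned to 0.21 without conventional replicate 2 and 0.02 without SPF replicate 1. Of the usual Sema3a receptor chain, Plxna4 had no probe above background.

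**Figure D3:**
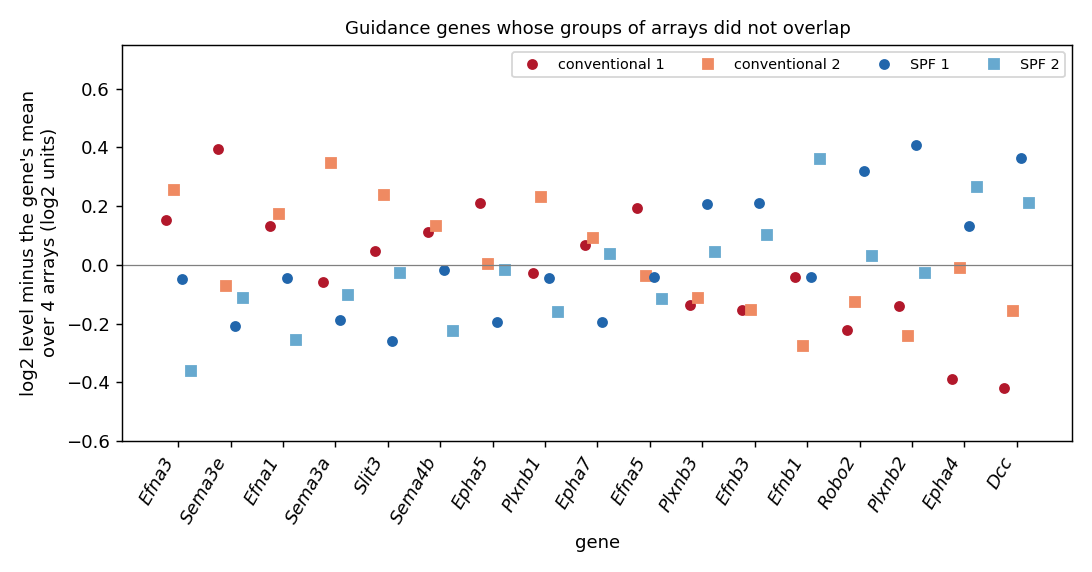
Each point is 1 array (conventional left of SPF) for the 17 guidance genes whose groups do not overlap, as log2 level minus the gene's mean over the 4 arrays, in order of the difference. The 10 genes at the left were higher and the 7 at the right lower in conventional mice, and in Efna5 and Efnb1 the nearest arrays of the groups are level.

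The 3 tested ephrin-A genes were all higher in conventional mice without overlap, with a median difference of 0.30, and none passed the test. Of all features, 15.6% were higher without overlap. Ephrin-A ligands are tied to the membrane by a lipid anchor and bind EphA receptors. Efna1 measured 6.34 and 6.38 in conventional mice, against 6.16 and 5.95 in SPF mice, a difference of 0.30 ± 0.21. Efna3 measured 6.10 and 6.20 in conventional mice, against 5.90 and 5.58 in SPF mice, a difference of 0.41 ± 0.22 or 1.33-fold. The differences of Efna1 and Efna3 were 0.12 and 0.15 without background correction, and 0.07 and 0.08 in log2 of the authors' values. In both genes SPF replicate 2 was the lowest array, and in the RefSeq gene order the 2 genes are neighbours on chromosome 3. Efna5, a repellent for axons in topographic maps, measured 10.34 and 10.11 in conventional mice, against 10.11 and 10.03 in SPF mice. Conventional replicate 2 and SPF replicate 1 were level to 2 decimals, and the difference was 0.16 ± 0.13, or 0.04 without conventional replicate 1. All 3 differences stayed above 0 under the 4 other scalings tried, although Efna5 overlapped with median scaling. The authors' values and the scaling without background correction keep the order of arrays in each gene, so there the sign was fixed.

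The 3 ephrin-B genes were all lower in mean in conventional mice, with a median difference of -0.31, and none passed the test. Ephrin-B ligands span the membrane and signal back into their own cell. Efnb3, which in mice keeps corticospinal axons from recrossing the midline of the cord, measured 6.64 and 6.64 in conventional mice, against 7.003 and 6.90 in SPF mice. The conventional arrays were alike and both lay below the SPF arrays, by -0.31 ± 0.20. Efnb1 measured 6.18 and 5.95 in conventional mice, against 6.18 and 6.58 in SPF mice. Conventional replicate 1 and SPF replicate 1 were level to 2 decimals, and the difference of -0.32 ± 0.24 became -0.12 without SPF replicate 2. Markers of meningeal fibroblasts were also highest on SPF replicate 2 and lowest on conventional replicate 2, with mean log2 levels of 8.31 and 6.47 in conventional mice, against 7.30 and 9.62 in SPF mice over 9 tested genes. Of 10 such markers 7 were above background on all arrays, Col3a1 on none, and their summed intensity was 8281 and 2577 in conventional mice, against 5281 and 24527 in SPF mice. Their part in the Efnb1 values was not tested.

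Efnb2, a ligand of Ephb4 on arteries, measured 5.31 and 4.56 in conventional mice, against 5.16 and 5.28 in SPF mice. Only conventional replicate 2 stood low, below background, and the groups overlapped (-0.28 ± 0.29). The negative sign of all 3 ephrin-B differences held under the 4 other scalings tried. For Efnb1 and Efnb3, without overlap, the authors' values and the scaling without background correction could not have turned it.

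Among EphA receptors, Epha4 was lower and Epha5 and Epha7 higher in conventional mice without overlap. With median scaling Epha5 and Epha7 overlapped, and Epha4 did not. Epha4, which binds ephrins of both types and is the receptor for Efnb3 on corticospinal axons, measured 5.32 and 5.69 in conventional mice, against 5.84 and 5.97 in SPF mice. Both SPF arrays were the higher, and the lowest level called above background on each array lay between 5.03 and 5.08. The difference was -0.40 ± 0.23, and it was -0.21 without conventional replicate 1. Epha5 measured 9.21 and 9.00 in conventional mice, against 8.81 and 8.98 in SPF mice, a difference of 0.21 ± 0.15, or 0.11 without conventional replicate 1. The nearest arrays of the 2 groups were almost level, and of its 3 tested probes 1 had the opposite sign. Epha7 measured 6.25 and 6.27 in conventional mice, against 5.99 and 6.22 in SPF mice, a difference of 0.16 ± 0.21, or 0.04 without SPF replicate 1.

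The EphB receptors, partners of the ephrin-B ligands, all overlapped. Ephb1, whose difference was the farthest from 0 among them, measured 11.05 and 11.14 in conventional mice, against 11.43 and 11.00 in SPF mice. The SPF arrays lay on either side of the conventional pair. The difference was -0.12 ± 0.16 and turned to 0.10 without SPF replicate 1. Ephb4, a receptor of venous endothelium, measured 7.14 and 7.21 in conventional mice, against 6.66 and 7.62 in SPF mice, with the SPF arrays again outermost.

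Dcc, the receptor through which netrin-1 attracts commissural axons, had 5.57 and 5.83 in conventional mice, against 6.35 and 6.20 in SPF mice. Both conventional arrays lay below both SPF arrays. The difference was -0.57 ± 0.22, 1.49-fold higher in SPF mice, with a confidence interval from -1.09 to -0.06 and a limma adjusted p of 1. The value rests on 1 of 4 probes. That probe gave -0.22 without background correction and -0.11 in log2 of the authors' values. Averaged with the second probe below, the difference was -0.23. A second Dcc probe, above background on conventional replicate 2 and SPF replicate 2 only, gave 4.50 and 5.66 in conventional mice, against 4.74 and 5.16 in SPF mice, and its difference was 0.12. Unc5b, which turns the netrin response into repulsion, measured 8.87 and 9.14 in conventional mice, against 8.90 and 9.09 in SPF mice, so its groups overlapped almost fully.

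Ntn5, a member of the netrin family, measured 7.31 and 6.23 in conventional mice, against 7.19 and 7.39 in SPF mice. Conventional replicate 2 alone stood low. The difference was -0.52 ± 0.35 and turned to 0.02 without that array. The meningeal fibroblast markers given above for Efnb1 had the same order of arrays as Ntn5, in mean and singly apart from Col1a2. Plxnd1 and Sema4a had that order too. The part of these markers in the values of Ntn5, Plxnd1 and Sema4a was not tested. Ntn3, a secreted netrin, measured 7.48 and 7.65 in conventional mice, against 7.79 and 7.61 in SPF mice, and its 2 probes differed in sign.

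Slits are secreted repellents that act through Robo receptors at the midline. Slit3 measured 5.67 and 5.86 in conventional mice, against 5.37 and 5.60 in SPF mice, a difference of 0.28 ± 0.22, or 0.17 without SPF replicate 1. Both of its tested probes were higher in conventional mice without overlap, but the second was below background on SPF replicate 1, at 4.88. The Slit3 difference was 0.09 without background correction and 0.05 in log2 of the authors' values. Slit2 measured 8.51 and 9.05 in conventional mice, against 7.98 and 8.88 in SPF mice. Replicate 2 was the higher array in both groups, the groups overlapped, and the difference of 0.35 ± 0.32 turned to -0.11 without SPF replicate 1. In mean, endothelial markers (values above) had the same order of arrays as Slit2, Sema4f and Sema7a. Singly, Cldn5, Flt1, Pecam1, Slco1c1 and Tek each had another order. The mean of motor neuron markers had the same order as Slit3, Sema3a and Epha7, as did Isl1 and Prph but not Chat and Slc5a7. The motor neuron markers had mean log2 levels of 8.44 and 8.63 in conventional mice, against 7.60 and 8.25 in SPF mice over 4 tested genes, of 5 listed, with Mnx1 above background on no array. Their summed intensity was 1695 and 2098 in conventional mice, against 1054 and 1571 in SPF mice, and the part of either list in these values was not tested.

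Robo2 measured 6.59 and 6.69 in conventional mice, against 7.14 and 6.85 in SPF mice. Both conventional arrays were below both SPF arrays, by -0.35 ± 0.21, or -0.20 without SPF replicate 1. All 5 tested Robo2 probes had a lower mean in conventional mice, with differences from -0.60 to -0.01. Robo1, its neighbour on chromosome 16, measured 9.90 and 9.87 in conventional mice, against 9.51 and 10.02 in SPF mice, and the SPF arrays lay on either side. Of the 17 guidance genes with several tested probes, 8 had probes of both signs.

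**Figure D4:**
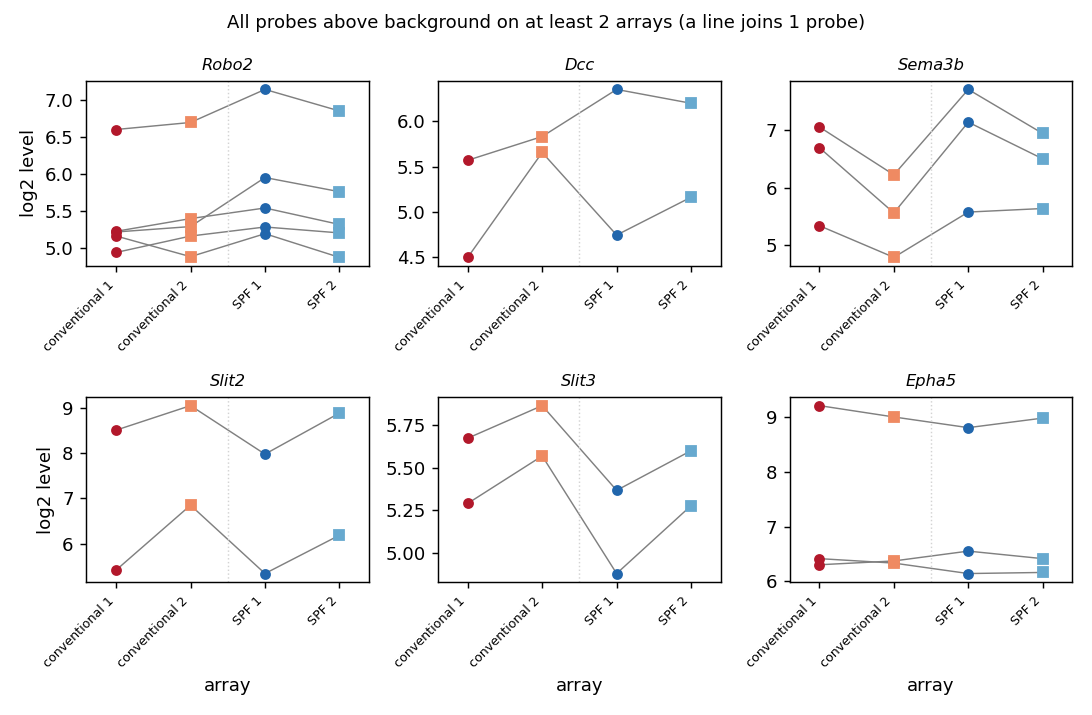
Log2 level on each array (conventional left of SPF) for every probe above background on at least 2 arrays, in 6 genes with several such probes. Each line joins the values of 1 probe; the vertical axes differ and do not start at 0. The probes of Slit2 and of Slit3 keep the same order of arrays within each gene, while the lower Dcc probe peaks on conventional replicate 2.

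Ligands and receptors were close in the middle of their differences, with a median of -0.04 over 25 ligands and -0.05 over 18 receptors. Without overlap, 7 ligands were higher and 2 lower in conventional mice, and 3 receptors were higher and 5 lower, beside 15.6% higher and 15.1% lower of all features. With median scaling these counts were 5 and 4 for ligands and 0 and 5 for receptors. The difference between these counts was not tested.

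Genes that work with the guidance families but carry other names were taken from a list of 57, of which 55 were on the array, 38 above background on all arrays and 39 tested. Of these 0 passed the limma test, 4 were higher (10.3%) and 5 lower (12.8%) in conventional mice without overlap, below the 15.6% and 15.1% of all features, and the median difference was 0.06. The 3 with the differences farthest from 0 were Enah, Mical1 and Robo4. Mical1, an enzyme that oxidizes actin downstream of plexins, measured 5.78 and 5.87 in conventional mice, against 6.29 and 6.13 in SPF mice, below both SPF arrays by -0.38 ± 0.21. Enah, an actin regulator used by netrin and Robo signalling, measured 6.31 and 7.11 in conventional mice, against 7.05 and 7.23 in SPF mice, and the groups overlapped (-0.43 ± 0.29). Robo4, a Robo of blood vessels, measured 9.10 and 9.38 in conventional mice, against 8.51 and 9.24 in SPF mice, also with overlap (0.36 ± 0.25).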

How the data were processed

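Each array's deposited file column holds linear bead intensity, not normalized, per the file headers. The detection p-value beside each signal was also deposited by the authors, per the file headers. The submitters' processing notes name lumi, with version and settings not given in the sources used here. A second deposited table holds intensity values normalized by the authors and served as an alternative. Its column medians were 216.5 and 216.6 for the conventional arrays and 216.5 and 216.5 for the SPF arrays. Probes in each column kept the rank order of that array's bead signals (rank correlation 1, at most 0.923 with another array). The scale is linear, no centring was seen, and the transformation of low values is unknown. Every column had the same lowest value, 182.158, and the same highest, 34269.1, as quantile normalization gives. Groups and replicate numbers came from the titles.

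Background correction and quantile normalization used limma's neqc (3.58.1, R 4.3.3, offset 16, log2). Probes with a detection p under 0.05 on at least 2 of 4 arrays were kept (21065 probes, 14634 features). The 2 groups were compared in limma (lmFit, then eBayes with a mean-variance trend), with two-sided p-values adjusted over all features by the Benjamini-Hochberg method. The fit was also run on simulated data with independent noise drawn from the model's own variances. Such data cannot show whether the p-values hold for these arrays. Symbols came from the platform annotation, and promoters and gene order from RefSeq tables of GRCm38.p6.

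Members and lists were chosen with earlier results of these data known. Values are given for each tested gene whose groups do not overlap or whose difference is at least 0.5 in size, for the gene farthest from 0 in each of 12 classes, for textbook partners, and for 3 partners of the list. Sema3f, Sema4d, Sema6d, Sema7a, Efnb2, Ephb4, Ntn3 and Unc5b were added after their values were seen. The number of arrays limits the precision, and the files name no slide or scan batch.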

Additional observations from a re-analysis of the deposited data

How the results depend on the processing

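The 23 genes chosen by the naming rule kept their direction in the 5 processing alternatives that can change a difference. Of these, the mean of a gene's probes changed 10 genes. The authors' values and the fit without background correction keep the order of arrays in each gene. For a gene without overlap they could therefore change only the size, as for Dcc, from -0.57 to -0.11 and -0.22. The 6 other alternatives alter only the filter or the variance and leave the difference as it is, and the stricter detection filter dropped 3 of the 23 genes. In no alternative run for them did any of the 23 pass the threshold (lowest adjusted p 0.503). The number of features past the threshold, 0 in the comparison as reported, was 5 with the replicate block, 0 to 2 when each array was left out in turn (2 without conventional replicate 2), and 443 at an unadjusted p under 0.05, which 1 guidance gene reached. Same-numbered arrays had correlated deviations of 0.198, and nothing in the labels ties the numbers to a shared day or litter. With the replicate block 0 guidance genes passed, and 1237 features had an unadjusted p under 0.05, against 443 without it. Guidance genes higher in conventional mice without overlap were 5 with median scaling, against 10. Efna5, Epha5, Epha7, Plxnb1 and Sema3e overlapped there, and Plxnb1 also with cyclic loess normalization. Ntn3 and Sema6b, which overlapped with quantile normalization, were lower without overlap with median scaling. With every kept probe counted singly, 11 of 68 probes (16.2%), from 9 genes, were lower without overlap, where 7 of 43 genes (16.3%) were, so the share hardly moved. With each array left out in turn, one group has a single array and fewer genes can overlap: 14 to 17 were higher and 13 to 17 lower, the median difference ran from -0.048 to 0.031, and 41 to 42 genes were above background on all remaining arrays. Leaving out an array turned the sign of 22 of the 43 tested guidance genes, and of 5 of the 23: Ephb1 (-0.33 to 0.10), Nrp1 (-0.34 to 0.21, and 0.02 without SPF replicate 1), Ntn5 (-1.06 to 0.023), Sema6a (-0.74 to 0.21, and 0.08 without SPF replicate 2) and Slit2 (-0.11 to 0.80). The cause was not tested.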

Other observations

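In some genes the arrays of one group lay far apart. Averaged over the 2 groups, the gap was 0.57 for Sema6d and 0.59 for Sema3f. It was wider for Sema6a, Sema3b, Epha3, Slit2 and Ntn5. In Sema6a and Slit2 the replicate 2 array was the higher in both groups. Sema6d, a transmembrane semaphorin, measured 9.06 and 8.50 in conventional mice, against 9.20 and 8.61 in SPF mice, with the replicate 1 array higher in both groups. Sema3f, a secreted ligand of Nrp2, measured 8.94 and 8.02 in conventional mice, against 8.64 and 8.37 in SPF mice. Its replicate 1 array was also the higher in both groups. Astrocyte markers were also higher on the replicate 1 arrays, with mean log2 levels of 11.83 and 11.32 in conventional mice, against 11.71 and 11.32 in SPF mice over 5 tested genes. So were microglial markers, with 7.91 and 7.55 in conventional mice, against 8.12 and 7.66 in SPF mice, and skeletal muscle markers, with 6.19 and 5.59 in conventional mice, against 7.32 and 6.14 in SPF mice. The array order of Sema6d was that of the microglial and muscle means, and the order of Sema3f and of Nrp1 that of the astrocyte mean. Singly, Cx3cr1, Csf1r, Acta1 and Mylpf had the order of Sema6d. Of the 5 astrocyte markers only Aqp4 had that of Sema3f, and the other genes of these lists had other orders. The part of these lists in the semaphorin and Nrp1 values was not tested.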
